A study of Mus musculus with 9 samples.

Results

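Sphingosine 1-phosphate (S1P) receptors and the G13 pathway were followed in mouse germinal center (GC) B cells through 8 genes: the receptor genes S1pr1, S1pr2, S1pr3 and S1pr4, the signaling genes Gna13 and Arhgef1, and the S1P metabolism genes Sphk1 and Sgpl1. The members were all probe sets that the array's annotation gave to these symbols alone, which came to 20 probe sets out of 34945 with a single symbol, and to 8 of 18193 genes. Every one of the 8 genes had at least 1 probe set.

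RNA was measured on 9 Affymetrix mouse arrays, 3 for each genotype: FOXO1f/f, Cg1-Cre (KO, both Foxo1 alleles floxed), FOXO1f/+, Cg1-Cre (HET, 1 floxed allele) and FOXO1+/+, Cg1-Cre (WT, none). All animals were 10 weeks old, had received sheep red blood cells on days 0 and 5, and gave spleen cells on day 12, from which B220hi, PNAhi, CD95hi cells were sorted. The Cre recombinase, which the WT controls carried too, is expressed from the locus of the IgG1 constant region and acts in B cells that join the GC response, so that cells outside that response keep Foxo1. The labels gave 1 animal per array, although the design text spoke of pooled spleen cells. RNA was amplified before labeling, and p-values measure the spread between these animals or pools.

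S1P is a lipid that is abundant in blood and lymph and scarce inside lymphoid tissue, where S1P lyase destroys it. S1PR1 couples to Gi and draws lymphocytes toward S1P and out of the tissue. S1PR2 couples to G13, whose alpha subunit activates the RhoGEF encoded by Arhgef1, and the resulting RhoA activity halts migration and holds GC B cells in the center of the follicle. S1PR3 is known from marginal zone B cells, the B cells that sit outside the follicle, and S1PR4 is found mainly on blood cells.

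The targeted gene followed the labels: the brightest Foxo1 probe set gave 983, 1392 and 727 signal units in KO, 3633, 3581 and 3479 in HET, and 5432, 5300 and 5616 in WT, which put KO at 19.0% and HET at 65.4% of the WT mean. Whether the remaining KO signal came from cells that had kept the gene was not tested. Of the GC B cell markers other than S1pr2, 7 of 9 had a probe set with 1 symbol, and all 7 reached the median signal of every array. The median signal was 47.4 to 48.0 on the KO arrays and 42.9 to 45.0 on the HET and WT arrays. No further scaling between arrays was applied in the main fit. A probe set was tested when it reached the median of the array on at least 3 of the 9. Signals below it are called dim here. By this filter 16 of the 20 probe sets and 7 of the 8 genes were tested, and Sphk1 was not.

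In KO cells 3 of the 7 tested members changed against WT: S1pr3 and Arhgef1 rose and S1pr4 fell. Over all 10331 genes tested, 11.9% were called in this comparison, 6.1% higher and 5.83% lower, and 25.7% had an unadjusted p under 0.05. The called genes were 630 higher and 602 lower genes, and 443 higher and 855 lower with each array centred on its median. S1pr2, S1pr1, Gna13 and Sgpl1 did not pass. KO against HET called S1pr3 and S1pr4, 2 of 7, where 8.99% of all genes were called, 4.56% higher and 4.43% lower. HET against WT called 0 of the 7 members in limma (0 at an unadjusted p under 0.05, beside 4.18% of all genes), and 0.00968% of all genes, a single gene model named Gm34303, picked out after its value was seen. The median log2 difference of the 7 members was 0.036 for KO vs WT, -0.012 for KO vs HET and -0.0054 for HET vs WT, beside 0.011, 0.010 and 0.0023 over all genes tested. Adjusted p-values are those of limma, with Benjamini-Hochberg adjustment over all genes tested, or over all 23344 tested probe sets where a probe set is meant.

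**Figure D1:**
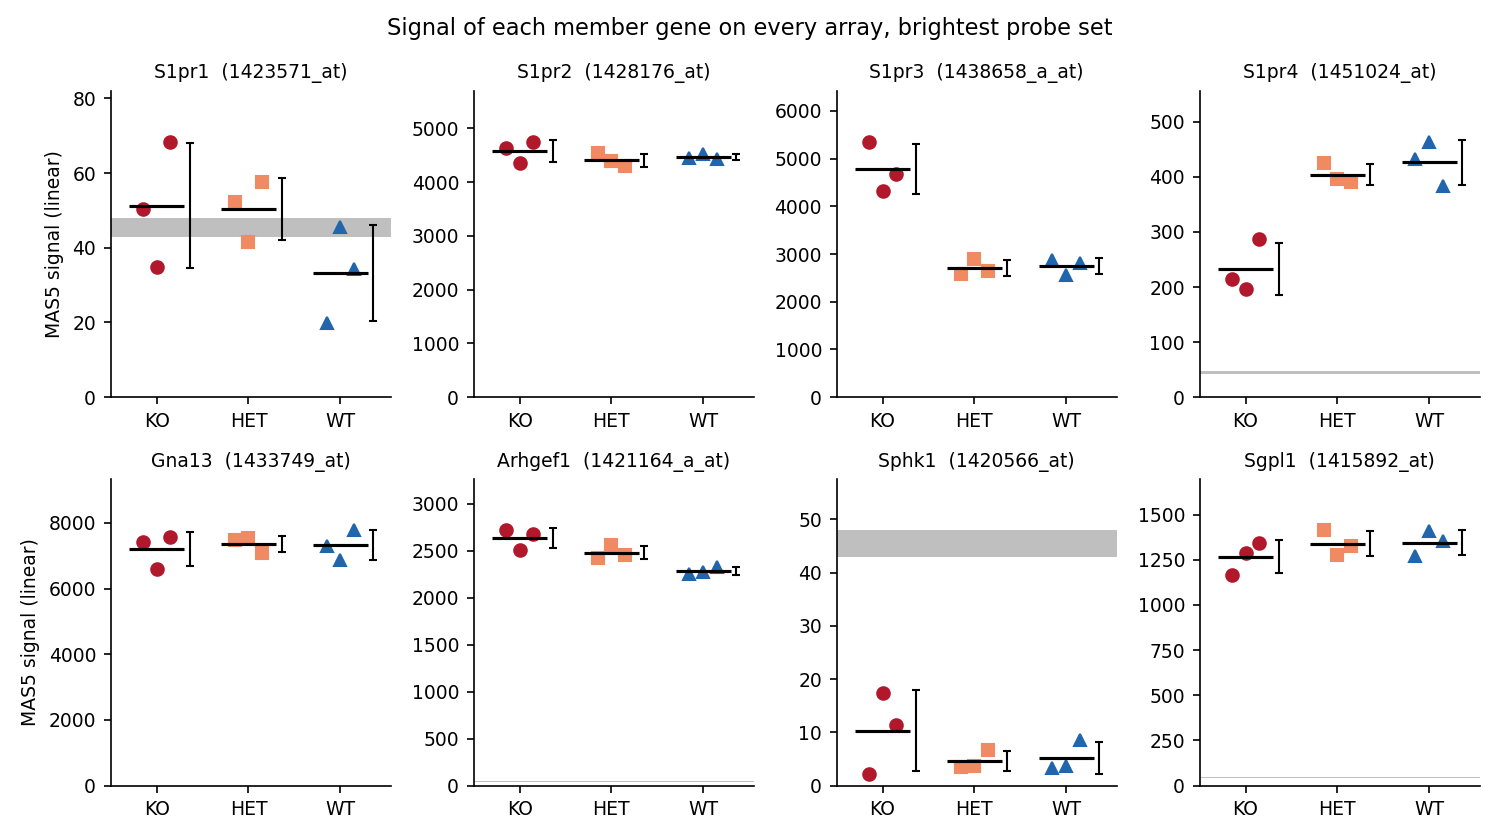
MAS5 signal on a linear scale (y axis, a separate range for each panel) of the brightest probe set of each member gene, for KO, HET and WT (x axis). Points are single arrays, black lines the group means and bars the SD (n = 3), and the grey band spans the medians of the 9 arrays, 42.9 to 48.0. The KO arrays of S1pr3 lie above, and those of S1pr4 below, every HET and WT array, and all Sphk1 points lie below the band.

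The promoters of the 2 receptor genes that changed in KO, and of S1pr2, which is active in GC B cells and was not called, are given as sequence, since FOXO1 binds DNA at sites related to TGTTTAC. RefSeq (GRCm38.p6) held a window of 250 bases before to 50 bases after the start for 7 of the 8 members, 12 windows in all. Each window is printed 5′ to 3′ on the strand of the gene, and capitals mark the FOXO core TGTTT read on either strand (AAACA where it lies on the opposite strand).
S1pr3 promoter, chr13:51408368-51408667, plus strand: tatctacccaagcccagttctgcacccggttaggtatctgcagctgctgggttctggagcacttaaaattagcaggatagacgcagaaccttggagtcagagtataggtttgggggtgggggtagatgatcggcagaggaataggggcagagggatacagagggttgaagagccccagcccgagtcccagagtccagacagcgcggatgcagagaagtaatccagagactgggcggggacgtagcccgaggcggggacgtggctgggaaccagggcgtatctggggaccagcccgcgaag
S1pr4 promoter, chr10:81500088-81500387, minus strand: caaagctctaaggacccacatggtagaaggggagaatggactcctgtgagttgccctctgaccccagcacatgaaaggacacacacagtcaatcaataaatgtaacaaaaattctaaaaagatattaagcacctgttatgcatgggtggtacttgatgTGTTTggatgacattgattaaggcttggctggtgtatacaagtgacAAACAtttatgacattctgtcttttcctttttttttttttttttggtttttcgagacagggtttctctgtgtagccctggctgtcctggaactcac
S1pr2 promoter, chr9:20976744-20977043, minus strand: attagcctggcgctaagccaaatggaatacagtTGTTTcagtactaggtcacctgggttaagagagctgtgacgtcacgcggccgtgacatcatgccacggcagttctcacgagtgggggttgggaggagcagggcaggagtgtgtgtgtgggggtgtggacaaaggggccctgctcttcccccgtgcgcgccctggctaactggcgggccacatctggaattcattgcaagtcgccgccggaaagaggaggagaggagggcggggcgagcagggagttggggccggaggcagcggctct
The core TGTTT was present 2 times in the S1pr4 window, at position -92 on the gene's strand and at -46 on the opposite strand, 1 time in the S1pr2 window at position -217, and 0 times in the S1pr3 window. Of 32851 mouse promoter windows of this length, 50.5% held it on either strand. Among the other member windows it was in that of Gna13, in 1 of 2 of Arhgef1 and in 4 of 5 of Sphk1, and not in that of Sgpl1. The bases G and C made up 41% of the S1pr4 window, 59% of that of S1pr3 and 62% of that of S1pr2, beside a median of 52.7% over all windows. The longer FOXO site TGTTTAC, which contains the core, and its variant TATTTAC, which does not, were searched on either strand and found in 0 of the 12 member windows, and in 3.65% and 3.04% of all windows. These matches describe the letters in a short window, and binding was not measured.

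S1pr3, the receptor gene known from marginal zone B cells, was the member that rose most among those called. Its brightest probe set gave 5356, 4321 and 4684 units on the KO arrays, 2573, 2899 and 2651 on the HET arrays and 2878, 2568 and 2815 on the WT arrays. Every KO array was above every HET and every WT array, while HET and WT overlapped. Arrays of KO and HET did not overlap for 27.7% of all genes, and those of KO and WT for 29.7%. The log2 difference was 0.79 for KO vs WT (SE 0.08, 95% interval 0.62 to 0.97, adjusted p = 5.07e-05) and 0.82 for KO vs HET (SE 0.08, adjusted p = 5.85e-05), a rise of 1.73-fold and 1.76-fold. More cells of a type and more RNA per cell cannot be told apart in such bulk samples.

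A separate probe set with another source transcript, 1437173_at, gave 2865, 2782 and 3218 units in KO, 1740, 1562 and 1659 in HET and 1611, 1463 and 1570 in WT. It rose by 0.93 for KO vs WT (SE 0.08, adjusted p = 1.91e-05) and by 0.84 for KO vs HET (SE 0.08, adjusted p = 5.37e-05). Over the 9 arrays the log2 signals of these S1pr3 probe sets had a Pearson r of 0.95, over points that include the difference between KO and the other genotypes. The last probe set, 1460661_at, was dim on 8 of 9 arrays, with 5.98 to 51.1 units, and was not tested. For HET vs WT the difference of the brightest S1pr3 probe set was -0.02 (95% interval -0.20 to 0.15). By that probe set alone, a HET level above 1.11 times or below 0.87 times that of WT lay outside the interval. Probe set 1437173_at gave 0.09 for HET vs WT (95% interval -0.07 to 0.26), an interval that reaches above that upper bound. The order of its means was KO, HET, WT, and that of the brightest probe set was KO, WT, HET.

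S1pr4, a receptor gene of blood cells, went the other way. Its only probe set gave 215, 196 and 287 units in KO, 426, 396 and 390 in HET and 432, 464 and 384 in WT. All KO arrays lay below all HET and WT arrays, and HET and WT overlapped. Mean signal reached 54.6% of WT in KO and 94.7% in HET. The log2 difference was -0.88 for KO vs WT (SE 0.14, 95% interval -1.20 to -0.57, adjusted p = 0.00175) and -0.81 for KO vs HET (SE 0.14, adjusted p = 0.00419). For HET vs WT it was -0.07 (95% interval -0.39 to 0.24, adjusted p = 0.998).

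A contrast added after the values were seen took the HET level against the midpoint of KO and WT in the same limma fit, since KO vs HET and HET vs WT share the HET arrays. S1pr3 in HET lay 0.42 below that midpoint on the log2 scale (-0.42, SE 0.07, adjusted p = 0.0156), where 0.997% of all genes were called, and the call was lost without HET replicate 1 (adjusted p = 0.0734), without HET replicate 3 (adjusted p = 0.0824) and without the trend. S1pr4 in HET lay above its midpoint by 0.37 (SE 0.13), which did not pass (adjusted p = 0.279). For Arhgef1 the departure was 0.02 (SE 0.05, adjusted p = 0.954), and -0.23 to 0.04 over 20 alternatives. The order of the Arhgef1 means was KO, HET, WT in the brighter probe set and KO, WT, HET in the dimmer one, 1440403_at.

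S1pr2, the receptor gene that confines GC B cells, was nearly level across genotypes. It gave 4634, 4353 and 4754 units in KO, 4534, 4385 and 4299 in HET and 4441, 4525 and 4424 in WT, and all 3 groups overlapped. The coefficient of variation over the 9 arrays was 3.21%. The log2 difference for KO vs WT was 0.04 (SE 0.05, 95% interval -0.08 to 0.15, adjusted p = 0.721), which bounds a change at between 0.95-fold and 1.11-fold. The second S1pr2 probe set, 1447880_x_at, ranged from 128 to 250 units with no separation of the groups (0.07, SE 0.26, adjusted p = 0.91), and its interval was wide. The order of the S1pr2 means was KO, WT, HET, and no neighbors in that order differed beyond the spread of their arrays.

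S1pr1, the egress receptor gene that FOXO1 supports through Klf2 in T cells, was dim or not far above the array median. Its single probe set gave 50.5, 34.9 and 68.4 units in KO, 52.2, 41.4 and 57.5 in HET and 19.8, 45.5 and 34.3 in WT. It was dim on 1 KO, 1 HET and 2 WT arrays, and the groups overlapped. The log2 difference was 0.62 for KO vs WT (SE 0.35, 95% interval -0.14 to 1.38, adjusted p = 0.294) and 0.63 for HET vs WT (SE 0.35, adjusted p = 0.998), so neither passed and a change of up to 2.60-fold remained inside the KO vs WT interval. Single arrays moved these values: without WT replicate 1 they were 0.31 for KO vs WT and 0.32 for HET vs WT, without WT replicate 2 they were 0.87 and 0.88, and without KO replicate 3 the KO vs WT value was 0.39. The remaining receptor gene, S1pr5, ranged from 1.5 to 11.0 units, below the median of every array, and was not tested.

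Gna13, which encodes the G13 alpha subunit downstream of S1PR2, had 7 tested probe sets, more than any other member. The brightest, 1433749_at, gave 7419, 6600 and 7581 units in KO, 7466, 7529 and 7080 in HET and 7306, 6867 and 7777 in WT. The groups overlapped, and the log2 difference for KO vs WT was -0.02 (SE 0.06, 95% interval -0.16 to 0.11, adjusted p = 0.86).

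The 7 probe sets of Gna13 did not give the same size of difference, and they are not 7 separate readings. Probe sets 1422555_s_at, 1450656_at, 1460317_s_at and 1422556_at share 1 source transcript, and 1430295_at and 1453470_a_at share another. For KO vs WT the 7 lay between -0.37 and -0.02, all below 0. Limma called 0 of them (lowest adjusted p = 0.118), where 7.65% of all probe sets were called. At an unadjusted p under 0.05 there were 2. The share of all probe sets at that level was not computed, and that of all genes, each by its brightest probe set, was 25.7%. For KO vs HET they lay between -0.57 and -0.03, again all below 0, and 1 was called, where 5.58% of all probe sets were called. Under quantile normalization 1 of the 7, the brightest, turned to 0.03 for KO vs WT and 0.02 for KO vs HET. Leaving out 1 array turned 3 of the 7 above 0 in each contrast. Probe set 1433749_at reached 0.04 for KO vs WT and 0.03 for KO vs HET without KO replicate 2, and also turned for KO vs WT without WT replicate 3 (0.02). Probe set 1450656_at reached 0.04 in both contrasts without KO replicate 2, and 0.05 for KO vs HET without HET replicate 1. Probe set 1422555_s_at reached 0.03 for KO vs WT and 0.05 for KO vs HET without KO replicate 1, and 0.06 for KO vs HET without HET replicate 1. Probe set 1453470_a_at, the 1 called, gave 925, 662 and 780 units in KO, 1032, 1333 and 1128 in HET and 951, 1172 and 935 in WT, the KO arrays below all others. It fell by 0.57 for KO vs HET (SE 0.14, adjusted p = 0.0335). The call was lost without KO replicate 2 (adjusted p = 0.12), KO replicate 3 (adjusted p = 0.0709), HET replicate 2 (adjusted p = 0.135) or HET replicate 3 (adjusted p = 0.0768). It shares its source transcript, and so possibly its region of the mRNA, with 1430295_at (Pearson r = 0.80 over the 9 arrays), whose difference for KO vs HET was -0.36 (SE 0.21, adjusted p = 0.369). With the mean of its probe sets in place of the brightest, Gna13 as a gene was lower by 0.23 for KO vs HET, with an adjusted p of 0.0476, against 0.801 for the brightest. For HET vs WT the Gna13 probe sets lay between -0.04 and 0.19, and limma called 0 of 7 (0 at an unadjusted p under 0.05), where 0.00428% of all probe sets were called.

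**Figure D2:**
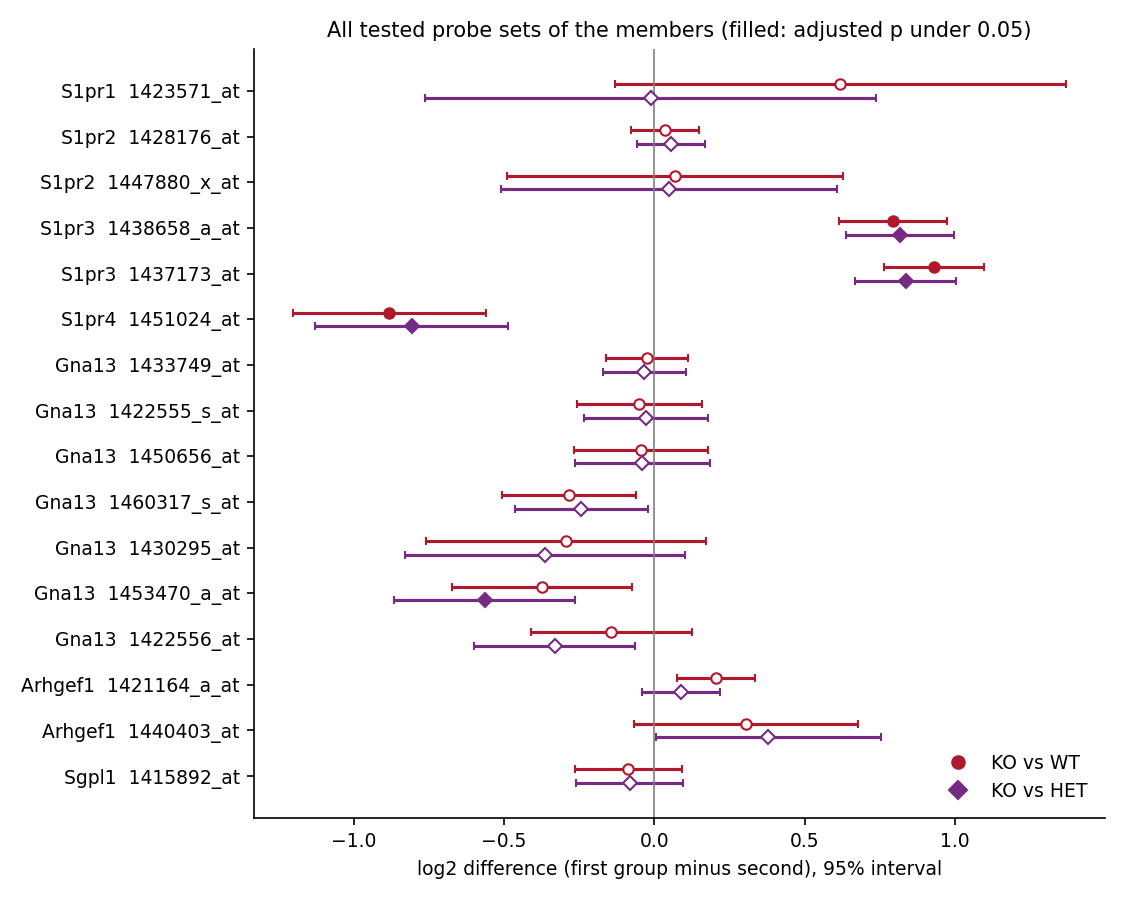
Log2 difference (x axis, first group minus second) with its 95% interval for each of the 16 tested probe sets of the members (y axis), for KO vs WT (circles) and KO vs HET (diamonds), with filled symbols for an adjusted p under 0.05. Both S1pr3 probe sets stand to the right of 0 in both contrasts, and the 7 Gna13 probe sets spread from -0.57 to -0.02.

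Arhgef1, which encodes the RhoGEF that links G13 to RhoA, rose slightly in KO. Its brighter probe set gave 2719, 2510 and 2677 units in KO, 2420, 2560 and 2459 in HET and 2249, 2277 and 2324 in WT. The KO and the HET arrays were each above all WT arrays, while KO and HET overlapped. HET and WT arrays did not overlap for 9.82% of all genes. The rise was 0.21 on the log2 scale, or 1.15-fold, for KO vs WT (SE 0.06, 95% interval 0.08 to 0.33, adjusted p = 0.0382). The HET vs WT difference of 0.12 (SE 0.06, adjusted p = 0.998) and the KO vs HET difference of 0.09 (SE 0.06, adjusted p = 0.398) did not pass.

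The rise of Arhgef1 was near the threshold. It was lost in 12 of 21 alternatives, with adjusted p from 0.0270 to 0.283 over all of them. Without KO replicate 1 or 3 the adjusted p was 0.114 or 0.0838, without WT replicate 1, 2 or 3 it was 0.109, 0.103 or 0.0717, and without HET replicate 3 it was 0.0509. In the fit of all probe sets the same probe set had an adjusted p of 0.0582. The dimmer probe set, 1440403_at, gave 296, 422 and 466 units in KO, 324, 256 and 317 in HET and 351, 300 and 293 in WT, and was not called (0.30 for KO vs WT, SE 0.17, adjusted p = 0.325).

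**Figure D3:**
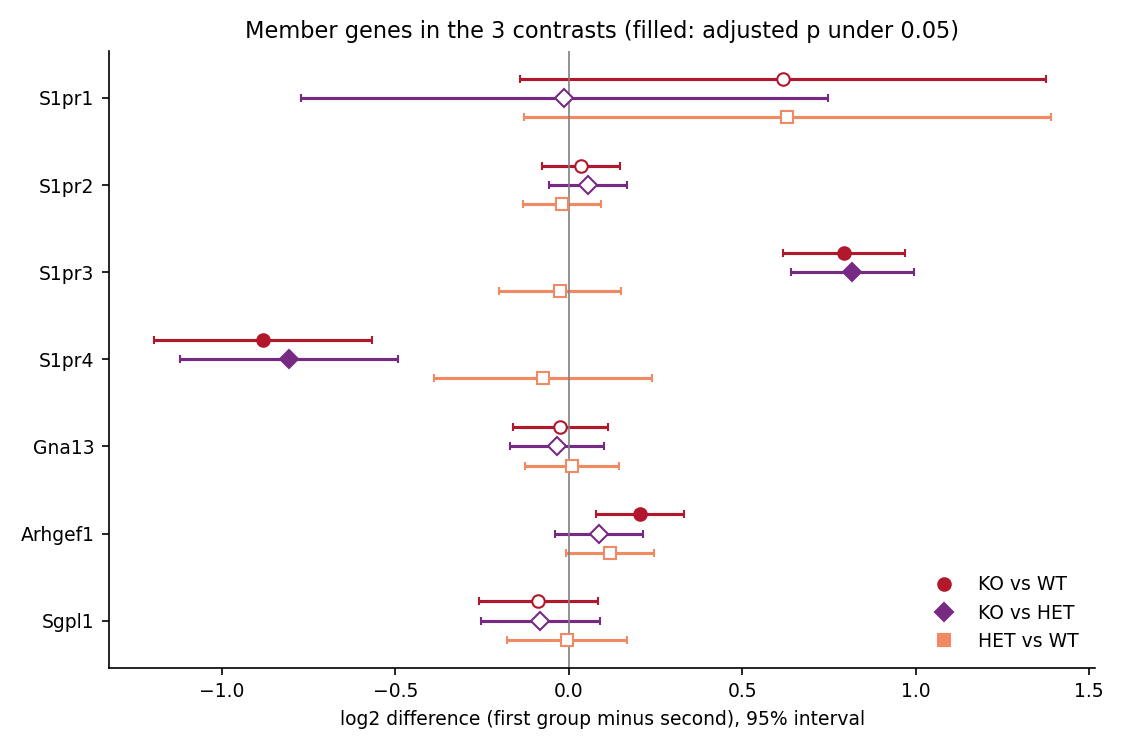
Log2 difference (x axis) with its 95% interval for the 7 tested member genes (y axis) in KO vs WT (circles), KO vs HET (diamonds) and HET vs WT (squares); filled symbols passed an adjusted p of 0.05. S1pr3 (0.79 and 0.82) and S1pr4 (-0.88 and -0.81) stand away from 0 in both contrasts with KO, and their HET vs WT intervals contain 0.

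Of the S1P metabolism genes, Sgpl1, the lyase gene that keeps S1P low inside tissue, was not called. It gave 1164, 1289 and 1343 units in KO, 1414, 1274 and 1328 in HET and 1269, 1406 and 1355 in WT, and the groups overlapped. The log2 difference for KO vs WT was -0.09 (SE 0.08, 95% interval -0.26 to 0.08, adjusted p = 0.54), between 0.84-fold and 1.06-fold. A second Sgpl1 probe set, with 18.5 to 50.5 units, was dim on 8 of 9 arrays. Sphk1, one of the kinases that make S1P, was dim on all 9 arrays in both of its probe sets. The first gave 2.23, 17.3 and 11.3 units in KO, 3.46, 3.72 and 6.72 in HET and 3.30, 3.71 and 8.65 in WT, and without the filter its adjusted p for KO vs WT was 0.698. The second gave 6.57, 9.28 and 2.71 units in KO, 1.51, 2.20 and 1.69 in HET and 2.13, 2.91 and 2.07 in WT. Signals this low carry no usable order of the groups.

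Beyond the members, 54 further genes were listed around S1P signaling: receptor control, other G proteins, RhoA and actomyosin, the Gi to Rac arm of migration, sphingosine supply, and S1P synthesis, breakdown and transport. Of these, 46 were tested, and in KO vs WT 3 rose, 1 fell and 42 did not pass. That is 8.7%, beside 11.9% of all genes, and their median log2 difference was 0.06, beside 0.01 over all genes. In KO vs HET 5 rose and 1 fell, which is 13%, beside 8.99% of all genes. In HET vs WT limma called 0 of 46 (1 at an unadjusted p under 0.05), beside 0.00968% of all genes (4.18% at an unadjusted p under 0.05). With the members included, the KO vs WT count was 7 of 53, and 4 without WT replicate 2 or without WT replicate 3.

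Among the genes that are not members, 2 of the 4 KO vs WT calls were kept in 21 of 21 alternatives. Both were in the list named for the supply of sphingosine, the precursor of S1P. That list holds ceramide synthase genes as well as ceramidase genes, and the direction of sphingosine supply was not tested. Asah2, a neutral ceramidase gene whose enzyme frees sphingosine from ceramide, gave 315, 357 and 308 units in KO, 496, 508 and 426 in HET and 501, 583 and 496 in WT. It fell by 0.69 for KO vs WT (SE 0.12, adjusted p = 0.00206) and by 0.54 for KO vs HET (SE 0.12, adjusted p = 0.0121). The KO vs HET call of Asah2 was lost in 2 of 21 alternatives, with its probe sets averaged (-0.37, adjusted p = 0.138) and without HET replicate 2 (adjusted p = 0.0555). Cers6, a ceramide synthase gene, gave 2653, 3099 and 2690 units in KO, 1727, 1983 and 1973 in HET and 1689, 1868 and 1960 in WT. It rose by 0.61 for KO vs WT (SE 0.09, adjusted p = 5.25e-04) and by 0.57 for KO vs HET (SE 0.09, adjusted p = 0.00112). For both genes the KO arrays did not overlap the other groups. Of 11 tested supply genes these were the 2 called in KO vs WT, and Cers2 was called in addition in KO vs HET (0.36, SE 0.10, adjusted p = 0.0414), a call that was lost in 13 of 20 alternatives and without any 1 of 7 arrays (all but KO replicate 2 and WT replicate 1), with adjusted p up to 0.132.

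The other called genes were near the threshold. Grk5, a kinase gene for G protein-coupled receptors, gave 225, 243 and 195 units in KO, 150, 144 and 147 in HET and 134, 166 and 160 in WT, a rise of 0.52 for KO vs WT (SE 0.15, adjusted p = 0.0412). Plpp1, a lipid phosphatase gene whose enzyme can dephosphorylate S1P, gave 1952, 2148 and 1956 units in KO, 1259, 1567 and 1699 in HET and 1364, 1662 and 1652 in WT, a rise of 0.38 (SE 0.11, adjusted p = 0.0434). These rises were lost in 13 and 10 of 21 alternatives. Leaving out any 1 array except KO replicate 3 lost that of Grk5 (adjusted p up to 0.142), and leaving out any 1 array except HET replicate 1 or 3 lost that of Plpp1 (adjusted p up to 0.154). Both were also called in KO vs HET, by 0.58 and 0.43 (adjusted p = 0.0333 and 0.0296), and those calls were lost in 9 and 8 of 21 alternatives, Grk5 without KO replicate 1 or 2 or any HET array, and Plpp1 without any KO array or HET replicate 1 or 2 (adjusted p up to 0.116 and 0.101). Gnaq, a Gq alpha subunit gene, rose by 0.43 in KO vs HET (SE 0.12, adjusted p = 0.0349), a call lost in 9 of 21 alternatives. Of these, 4 left out 1 array, KO replicate 1, HET replicate 1 or 2, or WT replicate 2 (adjusted p = 0.119, 0.0927, 0.128 and 0.0527), and the other 5 were median centring, quantile normalization, no filter, no trend and only the 2 groups compared (adjusted p from 0.0524 to 0.0709).

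**Figure D4:**
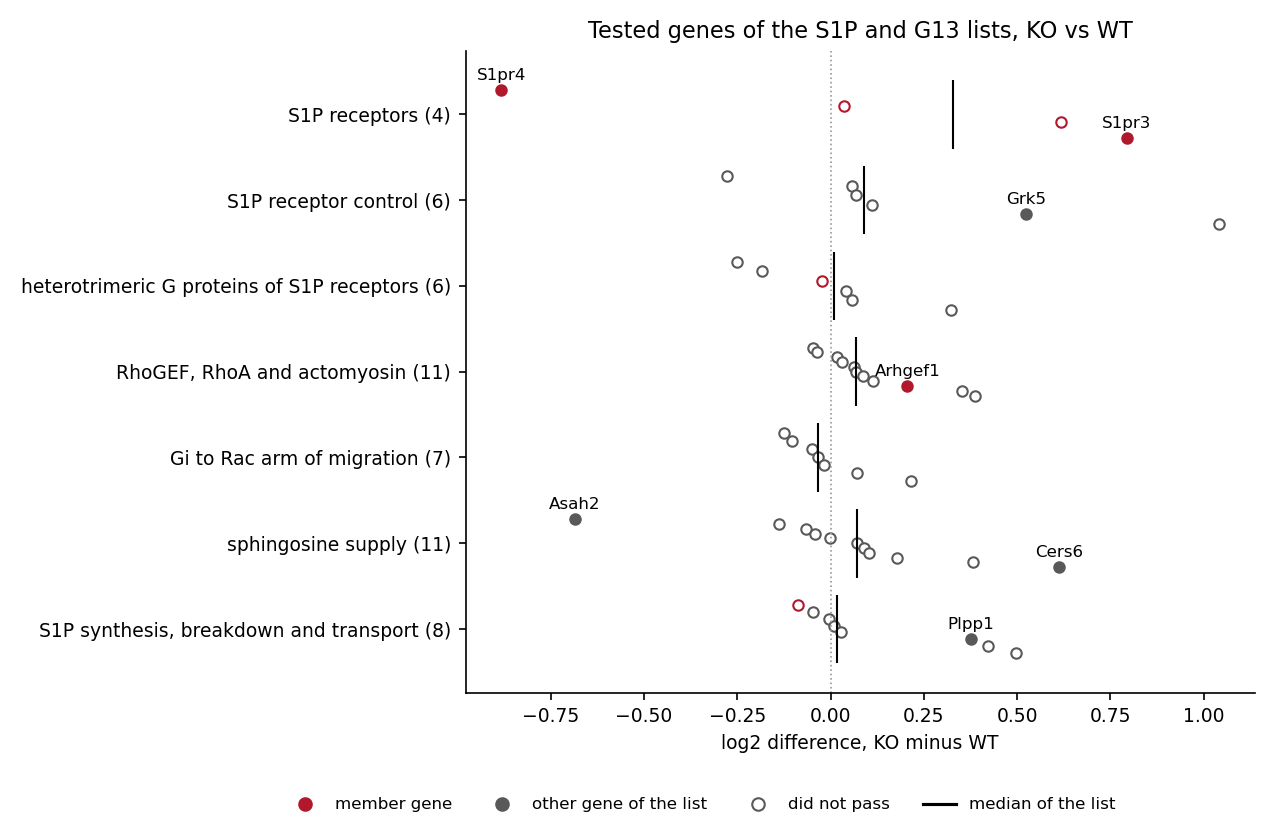
Log2 difference of KO minus WT (x axis) for the tested genes of 7 lists around S1P signaling (y axis, number of tested genes in brackets), with the 7 tested members in red, filled symbols for an adjusted p under 0.05 and a black line at the median of each list. The called genes S1pr4 and Asah2 lie to the left of 0 and S1pr3, Grk5, Arhgef1, Cers6 and Plpp1 to the right.

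Genes of the arms between the receptors and the cytoskeleton gave no further call in KO vs WT, where 11.9% of all genes were called. Lists this short can hold few or no calls at that share. Rhoa, the GTPase that Arhgef1 activates, stood at -0.05 (SE 0.05, adjusted p = 0.626) and Rock1, its kinase effector, at -0.04 (SE 0.06, adjusted p = 0.759). Of 11 tested genes of the RhoGEF, RhoA and actomyosin list, Arhgef1 was the 1 called. Of the 7 genes of the Gi to Rac arm limma called 0. At an unadjusted p under 0.05 there was 1, Vav1 at 0.22 (SE 0.07, adjusted p = 0.052), beside 25.7% of all genes at that level. Klf2, the factor that turns on S1pr1 in T cells, stood at 0.11 (SE 0.18, adjusted p = 0.764), and Cd69, whose product pulls S1PR1 from the surface, at -0.28 (SE 0.13, adjusted p = 0.204). Of 6 tested receptor control genes Grk5 was the 1 called. Arrb1 of that list had the largest KO vs WT difference of all tested list genes, at 1.04 (SE 0.32). It did not pass (adjusted p = 0.0563), and gave 77.4, 72.4 and 90.3 units in KO and 25.8, 46.4 and 44.3 in WT. Gnai3 (-0.18, adjusted p = 0.0721) and Rdx (0.39, adjusted p = 0.0772) did not pass either. For these genes KO and WT arrays did not overlap, as for 29.7% of all genes.

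Sums of some marker lists, though not of all, differed between KO and the other genotypes. In HET vs WT limma called 0 genes of each marker list, beside 0.00968% of all genes. Over all genes tested, 6.1% were called higher and 5.83% lower in KO vs WT. The summed signal of 7 GC B cell markers was 29531 to 30819 in KO, 34113 to 34746 in HET and 33166 to 36067 in WT, and in KO vs WT 1 rose and 3 fell. The summed signal of 9 marginal zone B cell markers other than S1pr3 was 14510 to 15174 in KO, 11285 to 12508 in HET and 11364 to 11962 in WT, and 7 of the 9 rose in KO vs WT. The sum of 9 myeloid markers was 1866 to 2341 in KO, 787 to 1853 in HET and 605 to 1360 in WT, with 4 of 7 tested higher in KO, namely Lyz2, Lyz1, Csf1r and Cd68, and with Itgam and Cd14 dim on all 9 arrays. The other tested myeloid markers were not called in KO vs WT. S100a9 stood at -1.08 (adjusted p = 0.673), S100a8 at 0.36 (adjusted p = 0.865) and Adgre1 at 0.34 (adjusted p = 0.614). S100a9 reached 53.1 units in KO, 228 in HET and 159 in WT, and S100a8 reached 44.0, 127 and 97.4. Of the called markers, Csf1r reached 332 units in KO, 489 in HET and 115 in WT. In KO vs HET 1 of the 7 tested myeloid markers was called higher, beside 4.56% of all genes. The sum of 7 plasma cell markers was 25413 to 27800 in KO, 21015 to 22495 in HET and 20332 to 21664 in WT, with 4 of 6 tested higher. The sum of 6 naive or follicular markers other than S1pr1 was 5738 to 6433 in KO, 9292 to 9495 in HET and 8343 to 9216 in WT, with 4 of 5 tested lower. Their part in the changes of S1pr3 and S1pr4 was not tested. Of 8 T cell markers, Cd3d, Cd3g, Cd4 and Il7r were dim on all 9 arrays and Cd3e on 8. The other 3 were tested and not called in KO vs WT: Lat reached the median on all 9 arrays, Thy1 on 5 and Cd8a on 4. The T cell sum was 143 to 271 in KO, 194 to 404 in HET and 216 to 285 in WT, and the sum of 5 B lineage markers was 33794 to 34904 in KO, 33247 to 34370 in HET and 32846 to 34663 in WT. Of these 5 B lineage markers 1 was called in KO vs WT, Ebf1 at 0.33 (adjusted p = 0.00413).

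Over the 9 arrays, the genes whose log2 signals followed a changed member most closely were picked by Pearson r among 10330 other genes. For S1pr3 they were Mgll, a lipase gene (r = 0.98), Man1c1, a mannosidase gene (r = 0.98), and Dnmbp, a scaffold protein gene (r = 0.98), with KO vs WT log2 differences of 1.88, 1.82 and 0.77. For S1pr4 they were Rbm38, an RNA-binding protein gene (r = 0.99), Atf4, a factor of the amino acid response (r = 0.98), and Sh2b2, an adaptor gene (r = 0.98), with differences of -0.58, -0.25 and -0.76. For Arhgef1 they were Cttn, the cortactin gene (r = 0.96), and the ubiquitin ligase genes Cul9 (r = 0.96) and Dtx3 (r = 0.96), with differences of 0.46, 0.64 and 0.26. The KO vs WT differences of Cul9 (adjusted p = 0.123) and Dtx3 (adjusted p = 0.0559) did not pass. All r are descriptions over 9 arrays that share their genotypes.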

How the data were processed

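The deposited table held linear signal intensity values, 1 for each of 45101 probe sets (64 of them controls) on each of 9 arrays. Per the submitters' processing notes, the authors made these intensities with MAS5 (version not given in the sources used here). The 2% trimmed mean of the deposited signals, averaged over the 9 arrays, was 500. A probe set was named when the platform annotation gave it 1 symbol (34945; several symbols 932, none 9160), and 34741 matched RefSeq of GRCm38.p6 by Entrez identifier.

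Signals were taken as log2(signal + 2.09), the 10th percentile of all signals, which understates changes of dim genes. Probe sets at or above the array median on 3 or more arrays were kept (23344), and each gene was represented by its brightest. Models over all 9 arrays were fitted with limma 3.58.1 (lmFit, eBayes with trend) in R 4.3.3, two-sided, with calls at an adjusted p under 0.05, and were tested on simulated data. The number of arrays limits the precision. Named genes are the 8 members, called genes of the lists, and the 3 genes nearest to each called member by Pearson r, with Foxo1 and defining markers; uncalled list genes were named after their values were seen. Members and lists were chosen with earlier results of these data known. Grk2, Rock2 and some listed markers were not analysed here. A total of 21 alternatives were run, 9 of which left out 1 array.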

Additional observations from a re-analysis of the deposited data

How the results depend on the processing

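The calls of S1pr3 and S1pr4 in KO vs WT and in KO vs HET were kept in 21 of 21 alternatives, with KO vs WT differences of 0.71 to 0.93 and -1.04 to -0.77. No called member changed sign. The rise of Arhgef1 was 0.14 with each array centred on its median, 0.21 without the filter, without the trend and with only the 2 groups compared, 0.26 with probe sets of a gene averaged and 0.30 without probe sets of suffix s, x or a (0.18 to 0.24 when leaving out 1 array), and was not called in those 6 settings.

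All genes called in KO vs WT numbered 768 to 1183 when leaving out 1 array (770 without WT replicate 2, 768 without WT replicate 3), in KO vs HET 543 to 895 (543 without HET replicate 2, 606 without HET replicate 3) and in HET vs WT 1 to 3, with 3 under robust eBayes, array weights or only the 2 groups compared. Centring each array on its median gave 443 higher and 855 lower genes in KO vs WT, beside 630 and 602 as reported, and 317 higher and 621 lower in KO vs HET, beside 471 and 458. Called genes of the S1P lists in KO vs WT were 4 without the filter and 4 to 7 when leaving out 1 array. In KO vs HET they were 5 under quantile normalization, without the filter or without the trend, and 3 to 8 when leaving out 1 array (4 without HET replicate 1, 3 without HET replicate 2). The S1pr3 departure was -0.42 and not called without the trend (adjusted p = 0.101), and -0.47 to -0.38 when leaving out 1 array.

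No paired analysis was possible because the sample titles share no number between genotypes. The lone S1pr4 and S1pr1 probe sets had no second probe set to set beside them. S1pr1, the tested member gene near the array median, had intervals too wide to bound a change. The cause of each lost call was not tested.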
